A study of Mus musculus with 18 samples.

Results

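Knockdown of Gstt1 was examined in mouse pancreatic ductal adenocarcinoma (PDAC) lines grown from lung metastases. The comparison set each Gstt1 shRNA library of a lung line against the NT control library of its own culture, and it used 6 of the 18 RNA-seq libraries of the study, 3 knockdown and 3 control. The remaining 12 libraries came from 4 liver-metastasis lines and formed 5 culture sets. The study asked how depletion of Gstt1 alters gene expression in lines derived from metastases.

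The 6 libraries made up 3 culture sets. In the first 42-3 set, line 42-3 carrying Gstt1 shRNA 1 was set against line 42-3 carrying the NT shRNA control. In the second 42-3 set, the same line carried Gstt1 shRNA 2, again with an NT control of its own, and the labels give this set another library code than the first 42-3 and 6-2 sets share. In the 6-2 set, line 6-2 carried Gstt1 shRNA 1 and was set against its NT control. Both arms of a set share the genotype, written SIRT6F/F/p48-Cre/p53F/+KrasL/+ for the first 42-3 set and SIRT6F/Fp48+/Tp53F/+KrasL/+ for the second 42-3 set and for 6-2, so by label the controls carry the same alleles as the knockdowns. The 42-3 sets thus name a single line with its genotype written differently, and each line traces to spontaneous metastases of genetically engineered mice. All cells were infected with lentivirus and selected with puromycin for 48 h. They were harvested after 1 passage. Each arm of a set was a single library. Values below are CPM, the reads of a gene scaled to a common library size, and are listed in the order first 42-3 set, second 42-3 set and 6-2.

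Gstt1 encodes a theta-class glutathione S-transferase, a cytosolic enzyme that joins glutathione to small electrophiles such as halogenated compounds and has peroxidase activity toward organic hydroperoxides. Glutathione conjugation is 1 of the routes by which cells dispose of reactive metabolites and oxidised lipids. Its relatives Gstt2, Gstt3 and Gstt4 lie beside it in a gene cluster, and reads from paralogs of this kind can be divided between genes by the way they are counted.

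The smallest lung library held 8411436 recovered reads and the largest 25552912, which puts a floor of 3 reads at 0.117 to 0.357 CPM, and between 2.80% and 5.37% of a library fell on its 10 most abundant genes. Counting intervals and floors cover counting error only.

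Gstt1 (ENSMUSG00000001663) was lower in the knockdown library of every set, near the limit of detection. In the knockdown libraries it stood at 0.352, 0.238 and 0.358 CPM, which were 9, 2 and 7 reads, against 37.6, 38.8 and 52.5 CPM in the NT controls. The groups did not overlap. The knockdown libraries kept 0.938% of the control level in the first 42-3 set (exact 95% counting interval 0.426% to 1.79%), 0.613% in the second (0.0740% to 2.22%) and 0.683% in 6-2 (0.274% to 1.41%). The intervals of the shRNA 1 sets and of the shRNA 2 set overlap, and hairpin and culture set cannot be told apart in the 42-3 line. On the log2(CPM + 1) scale the within-set differences were -4.83, -5.01 and -5.30, with a mean of -5.05 ± 0.23 (SD, n = 3 sets). With only 3 sets, the exact sign-flip permutation test (two-sided) cannot go below its result here, p = 0.25. Fitted across all genes by limma, the difference was -5.05 (SE 0.52, adjusted p = 0.0407), and its adjusted p was 0.0904 without the 6-2 set, 0.142 by edgeR and 0.221 with no filter on low values. Since the knockdown levels are near 0, the log2 difference depends on the pseudocount, at -5.72 with 0.5 and -4.26 with 2.

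Gstt3 (ENSMUSG00000001665), the nearest relative in sequence, was lower beside it but unevenly. Gstt3 was at 0, 0.832 and 8.86 CPM in the knockdown libraries and 19.5, 25.6 and 27.8 CPM in the NT controls, without overlap. With shRNA 1 it was thus undetected in 42-3 and still at 8.86 CPM in 6-2, although Gstt1 was equally low in both. The limma difference of -3.25 (SE 0.71, adjusted p = 0.129) did not pass the threshold of 0.05. Gstt2 reached 0, 0 and 0.666 CPM in the knockdown libraries, against 5.01, 0.404 and 1.41 CPM in the NT controls, and was too low to be tested. Gstt4 had at most 1 read in any of the 6 libraries.

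Because reads from Gstt1 and Gstt3 could be confused, and a hairpin could in principle match both, the coding sequences were compared (GENCODE vM21, build GRCm38; the deposited values were made on mm9, and the coordinates here belong to GRCm38 only). Aligned end to end, they were identical at 548 of 724 columns (75.7%), and 27 of 700 stretches of 21 bases in Gstt1 (3.86%) also occurred in Gstt3. The longest shared run was 35 bases, at coding positions 499 to 533 of both genes, spanning the junction of exons 4 and 5. It is printed here as the longest stretch of coding sequence that cannot be assigned to either gene, with the shared run in capitals and 6 flanking bases on each side in lower case.
Gstt1: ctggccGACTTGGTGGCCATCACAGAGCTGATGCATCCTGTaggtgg
Gstt3: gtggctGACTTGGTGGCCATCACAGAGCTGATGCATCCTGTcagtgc
The run lies on the minus strand, between chr10:75784229 and chr10:75786824 in Gstt1 (gene chr10:75783813-75798584) and between chr10:75775006 and chr10:75775900 in Gstt3 (gene chr10:75774115-75781414), with 2398 bases between the genes. The hairpin sequences were not used here, so whether either hairpin targets this run was not tested.

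The libraries of all 3 lung sets differed in transcripts that are markers of line identity, and this bears on every comparison below. The Y-linked helicase gene Ddx3y was at 0, 0.119 and 1.08 CPM in the knockdown libraries and 222, 98.3 and 216 CPM in the NT controls. Eif2s3y, a Y-linked subunit gene of translation initiation factor eIF2, was at 0, 0 and 0.0512 CPM in the knockdown libraries, against 160.2, 101 and 165 CPM in the NT controls. Uty and Kdm5d, Y-linked histone demethylase genes, had no read in any knockdown library. Uty was at 99.9, 40.1 and 65.1 CPM in the NT controls, and so at least 851-, 113- and 424-fold lower in the knockdown libraries against a floor of 3 reads per library. Kdm5d was at 49.0, 28.4 and 31.3 CPM in the NT controls, at least 418-, 79.5- and 204-fold lower in the knockdown libraries. Every NT control therefore expressed these Y-linked genes, and no knockdown library did so at a comparable level.

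The autosomal and X-linked identity transcripts separated the knockdown libraries from each other as well. Xist, the RNA that coats the inactive X chromosome, was at 197, 0.119 and 0.102 CPM in the knockdown libraries and 0.0736, 0.0674 and 0.201 CPM in the NT controls, high only in the 42-3 shRNA 1 library. Cdkn2a, encoding the p16 and p19Arf tumour suppressors, was at 20.2, 0 and 0.461 CPM in the knockdown libraries and 107, 64.5 and 170.4 CPM in the NT controls. Its neighbour Cdkn2b, encoding another inhibitor of cyclin-dependent kinases, was at 31.5, 0 and 0 CPM in the knockdown libraries and 191, 101 and 238 CPM in the NT controls. Both genes were near 0 in the second 42-3 and 6-2 knockdown libraries and lower but present in the first. Counted as at least 10 CPM in one arm and a 10-fold difference, 5, 6 and 6 of the 7 transcripts differed within the first 42-3, second 42-3 and 6-2 sets. No lung set is free of such differences, so no result can be given without them, and the words knockdown and NT control below name the labels. The part of a different cell origin in the differences that follow was not tested.

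**Figure D1:**
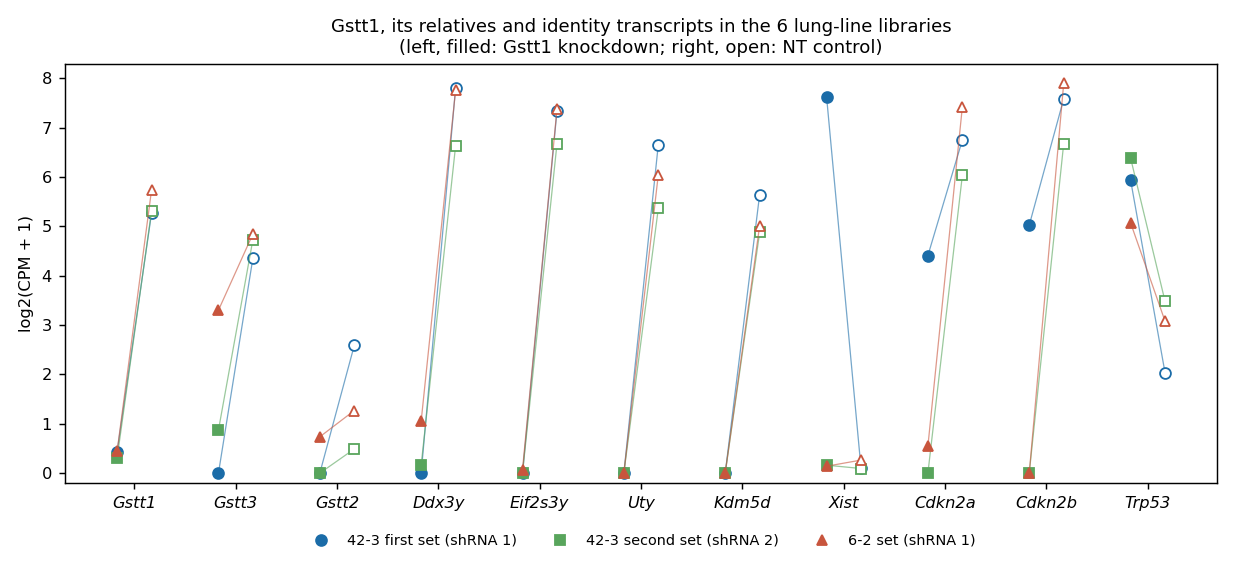
Level of Gstt1, its theta-class relatives, the 7 identity transcripts and Trp53 as log2(CPM + 1), with the knockdown library (filled, left) joined to the NT control (open, right) of its culture set. Gstt1 and the 4 Y-linked genes lie near 0 in all 3 knockdown libraries, while Xist is high only in the 42-3 shRNA 1 library.

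By correlation of whole transcriptomes the NT controls formed a group and the knockdown libraries did not. Across 12931 genes on the log2(CPM + 1) scale, the knockdown libraries correlated with their own controls at Pearson r of 0.772 to 0.849 and with each other at 0.785 to 0.896, while the 3 NT controls correlated with each other at 0.932 to 0.955, across both lines. These values are across genes, which are not independent replicates, and describe these libraries only. The closest library of each lung knockdown was another knockdown. For 42-3 with shRNA 1 it was 42-3 with shRNA 2 (r = 0.896), for 42-3 with shRNA 2 it was the liver line 13-2 with shRNA 1 (r = 0.963), and for 6-2 with shRNA 1 it was the liver line 42-2 with shRNA 1 (r = 0.919). Among the other 17 libraries, the own control ranked 10 for 42-3 with shRNA 1, 13 for 42-3 with shRNA 2 and 16 for 6-2. Liver knockdowns correlated with their own controls at 0.765 to 0.965.

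**Figure D2:**
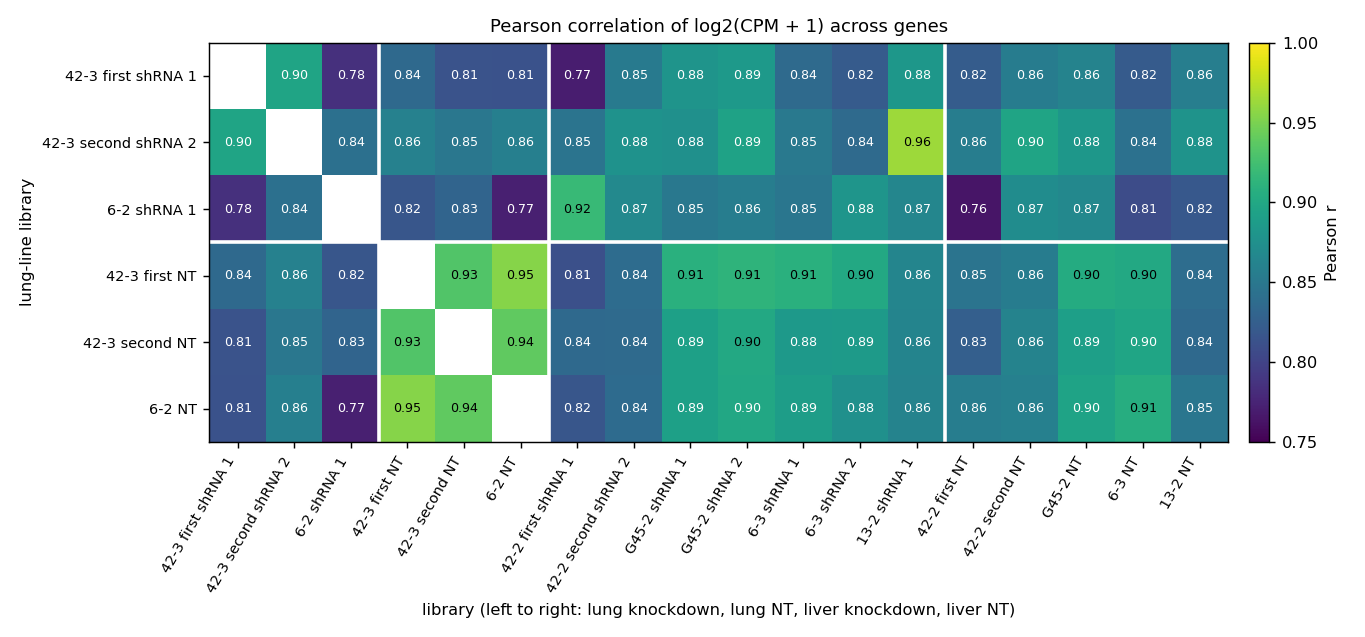
Pearson correlation of log2(CPM + 1) across 12931 genes between the 6 lung-line libraries (rows) and all 18 libraries (columns), each cell giving r. The 3 NT controls of the lung lines form a block of 0.93 to 0.95, and the 42-3 shRNA 2 library is closest to the 13-2 shRNA 1 library at 0.96.

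The difference between knockdown and control was large in every set and only partly shared between sets. Of 11996 genes tested, 1741 (14.5%) were at least 1 log2 unit higher and 2417 (20.1%) at least 1 log2 unit lower in the knockdown library of the first 42-3 set. The second 42-3 set gave 1492 higher (12.4%) and 1580 lower (13.2%), and 6-2 gave 2741 higher (22.8%) and 2950 lower (24.6%). The within-set differences of the first and second 42-3 sets correlated at r = 0.50 across genes, those of the first 42-3 set and 6-2 at 0.27, and those of the second 42-3 set and 6-2 at 0.25. By label, the 42-3 sets share a line but not a hairpin, while the first 42-3 set and 6-2 share shRNA 1 but not a line. The 42-3 sets thus resembled each other more than the first 42-3 set and 6-2 did. Their knockdown libraries differed in Xist, Cdkn2a and Cdkn2b, however, and whether they hold the same line was not tested. In all 3 sets together, 281 genes (2.34%) were at least 1 log2 unit higher and 486 (4.05%) at least 1 log2 unit lower. The median difference over all genes was -0.02.

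Fitted over the 3 sets with the set as a block, limma called 55 of 11996 genes at an adjusted p of 0.05 (0.458%), 11 higher (0.0917%) and 44 lower (0.367%) in the knockdown libraries. At an unadjusted p under 0.05 there were 797 higher and 1192 lower. All 55 differed by at least 1 log2 unit in 3 of 3 sets, and 54 did not overlap between the groups, where 12.6% of all genes lay wholly higher and 15.6% wholly lower. The exception was Ccl2. Since the 55 were picked on these same differences, their agreement between sets and lack of overlap are no independent support. Adjusted p-values of the 55 ran from 0.0407 to 0.0496, so every call lay just inside the threshold. Without the 6-2 set no gene passed (0 higher and 0 lower, smallest adjusted p 0.0904; 1110 higher and 1411 lower at an unadjusted p under 0.05). Without the first 42-3 set 22 were higher and 55 lower, and without the second 50 and 228. edgeR's quasi-likelihood test on the recovered reads called 0 higher and 0 lower (smallest adjusted p 0.0974; 697 higher and 951 lower unadjusted).

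Apart from Y-linked genes, the largest falls included a lectin, a retinol carrier and a channel regulator. Lgals2, encoding the lectin galectin-2, was at 9.55, 4.76 and 0.666 CPM in the knockdown libraries and 551, 1226 and 669 CPM in the NT controls. It had the largest fall, at -7.37 log2 units (SE 0.59, adjusted p = 0.0407), and every knockdown library lay far below every control. Rbp4, the secreted carrier of retinol, was at 4.11, 0.476 and 0 CPM in the knockdown libraries and 156, 215 and 236 CPM in the NT controls (-6.67, SE 0.68, adjusted p = 0.0407). The groups did not overlap for Rbp4 either. Clca4, a regulator of calcium-activated chloride channels in epithelia, was at 1.06, 11.7 and 2.05 CPM in the knockdown libraries and 359, 364 and 330.4 CPM in the NT controls (-6.36, SE 0.57, adjusted p = 0.0407). Its controls agreed closely and its knockdowns were all low.

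Brush border and junction genes were among the falls. Cdhr5, a protocadherin that links microvilli, was at 0.352, 0.238 and 0 CPM in the knockdown libraries, against 104, 36.4 and 112 CPM in the NT controls (-6.00, SE 0.60, limma adjusted p = 0.0407). Vil1, encoding the microvillar actin-bundling protein villin, was at 0.157, 0.594 and 0.512 CPM in the knockdown libraries and 88.8, 52.2 and 50.2 CPM in the NT controls (-5.47). Myo7b, the brush border myosin, was at 0.978, 0.832 and 0.666 CPM in the knockdown libraries and 101, 34.8 and 81.2 CPM in the NT controls (-5.20). All 3 were nearly silent in each knockdown library, and Vil1 and Myo7b were picked from the 55 after their values were seen. Vsig1, an immunoglobulin-like junction protein of gastric epithelium, was at 1.41, 0.119 and 0 CPM in the knockdown libraries, against 86.5, 65.0 and 63.7 CPM in the NT controls (-5.69, SE 0.52, adjusted p = 0.0407).

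The other large falls came from several functional classes. Slc1a2, a glutamate transporter best known from astrocytes, was at 0.0783, 0.119 and 0.205 CPM in the knockdown libraries and 47.9, 272 and 57.3 CPM in the NT controls (-6.34, SE 0.68, limma adjusted p = 0.0455). Acan, encoding the cartilage proteoglycan aggrecan, was at 0.235, 0.594 and 0.205 CPM in the knockdown libraries and 83.3, 102 and 76.7 CPM in the NT controls (-6.04, SE 0.50, adjusted p = 0.0407), with set differences of -6.09, -6.02 and -6.01 that hardly varied. Bst1, an ADP-ribosyl cyclase also called CD157, was at 0.0391, 0.119 and 1.08 CPM in the knockdown libraries, against 53.3, 123 and 44.2 CPM in the NT controls (-5.65, SE 0.64, adjusted p = 0.0471). The groups did not overlap in any of the 3 genes, although the controls of Slc1a2 and Bst1 varied widely. The Y-linked Eif2s3y (-7.10, SE 0.51), Ddx3y (-6.99, SE 0.53), Uty (-6.02, SE 0.55) and Kdm5d (-5.18, SE 0.53) were among the 44 falls, each at an adjusted p of 0.0407, so that 4 of the 44 are identity transcripts already described. The fitted values of Uty and Kdm5d depend on the pseudocount, since their knockdown libraries are all at 0.

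The 11 rises included receptors, signalling proteins and matrix enzymes that were almost silent in the controls. Scarf2, a scavenger receptor family member, was at 262, 143 and 70.1 CPM in the knockdown libraries and 0.957, 0 and 2.75 CPM in the NT controls (6.16, SE 0.72, limma adjusted p = 0.0471). Sulf2, an extracellular sulfatase that edits heparan sulfate, was at 66.7, 242 and 76.9 CPM in the knockdown libraries and 1.69, 0.472 and 0.604 CPM in the NT controls (5.87, SE 0.66, adjusted p = 0.0471). Tgfbr3, the TGF-beta co-receptor betaglycan, was at 187.6, 32.8 and 24.6 CPM in the knockdown libraries and 0.0736, 0 and 0.134 CPM in the NT controls (5.68, SE 0.73, adjusted p = 0.0496). None of these genes passed 3 CPM in any control. Scarf2 and Tgfbr3 were highest in the 42-3 shRNA 1 library and Sulf2 in the 42-3 shRNA 2 library.

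Axl, the receptor tyrosine kinase for Gas6 that is widely studied in mesenchymal and therapy-resistant tumour cells, rose to a similar extent in all 3 sets. It was at 1335, 1132 and 1359 CPM in the knockdown libraries and 141, 97.7 and 114 CPM in the NT controls. The set differences were 3.23, 3.52 and 3.56, and the fitted rise was 3.44 (SE 0.30, limma adjusted p = 0.0407). Unlike the other rises Axl was well expressed in the controls, so that its change hardly moves with the pseudocount (3.44 at 0.5 and 3.43 at 2). Its adjusted p was 0.0904 without the 6-2 set, 0.142 by edgeR and 0.221 with no filter on low values.

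The remaining rises were spread over signalling and transcription. Fyn, a Src-family tyrosine kinase, was at 151, 40.2 and 135 CPM in the knockdown libraries and 4.20, 0 and 1.34 CPM in the NT controls (5.37, SE 0.50, limma adjusted p = 0.0407). Dab2, an endocytic adaptor, was at 57.1, 106 and 100.03 CPM in the knockdown libraries and 3.68, 0.606 and 1.95 CPM in the NT controls (4.93, SE 0.62, adjusted p = 0.0488). Ephb2, a receptor for B-type ephrins, was at 57.5, 18.8 and 14.0 CPM in the knockdown libraries and 1.03, 0.0674 and 0.134 CPM in the NT controls (4.26, SE 0.55, adjusted p = 0.0496). The signalling enzyme gene Plcb4 (4.38), the bicarbonate transporter gene Slc4a8 (4.38) and the forkhead factor gene Foxf1a (4.29) rose to 14.3 to 36.5 CPM in the knockdown libraries, against 0 to 0.589 CPM in the NT controls. Prl2c2, a proliferin, was at 382, 54.9 and 29.5 CPM in the knockdown libraries and 5.01, 0.0674 and 1.21 CPM in the NT controls (5.17, SE 0.62, adjusted p = 0.0471), but its near-identical family members could share reads. Gata4, a transcription factor of foregut and heart, was at 75.1, 81.1 and 52.4 CPM in the knockdown libraries and 2.72, 0.0674 and 2.62 CPM in the NT controls, and with 4.83 (SE 0.64, adjusted p = 0.0520) it did not pass.

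**Figure D3:**
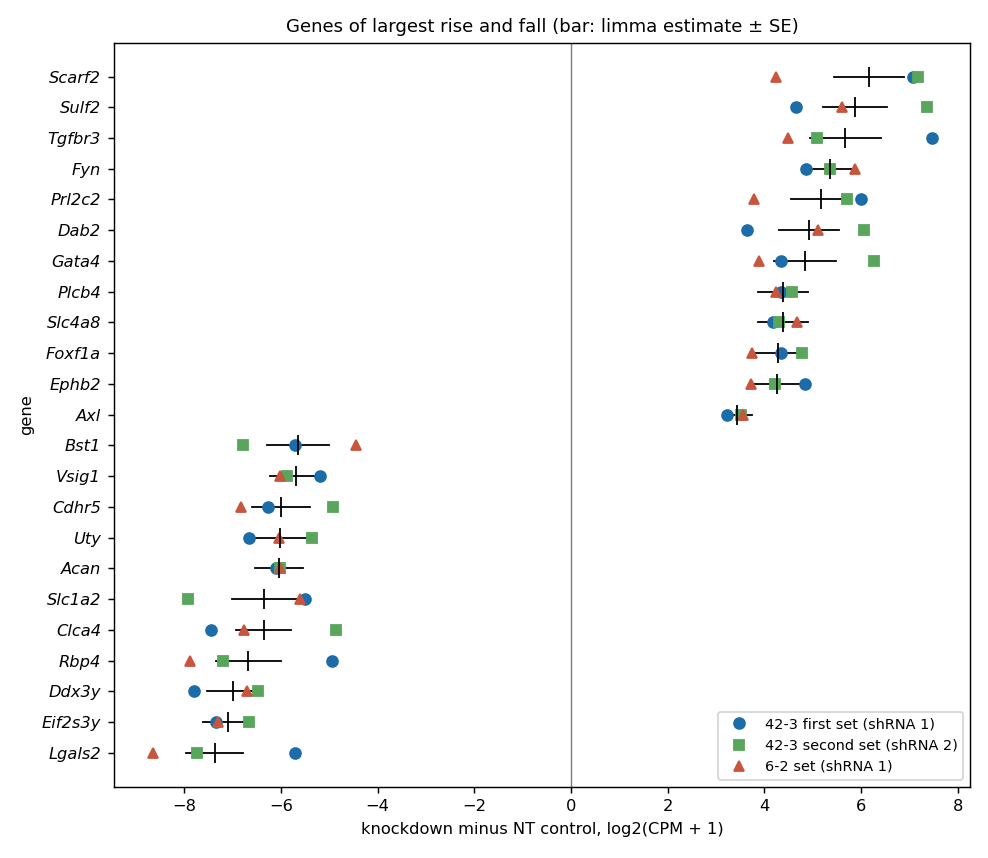
Within-set difference, knockdown minus NT control in log2(CPM + 1), for 12 genes of largest rise and 11 of the largest falls, with 1 symbol per culture set, a black tick at the limma estimate and a bar of ± 1 SE. Axl lies between 3.23 and 3.56 and Acan between -6.09 and -6.01, while Lgals2 varies more between sets.

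Gene lists were read by their counts and medians beside those of all 11996 genes, of which 22.5% were lower and 19.5% higher in 3 of 3 sets and the median difference was -0.02. By mean, 5899 of all genes were higher and 6097 lower. By set, 48.2%, 45.9% and 51.0% of all genes were higher and 51.8%, 54.0% and 49.0% lower. List counts near these shares do not set a list apart from all genes. Nuclear-encoded genes of oxidative phosphorylation, the respiratory chain that makes most cellular ATP, were lower almost throughout. Of 51 tested, 48 had a lower mean in the knockdown libraries, 41 were lower in 3 of 3 sets and 29 did not overlap, with a median of -0.78 and medians of -0.88, -0.41 and -0.92 by set. None passed singly. Uqcrq, a small subunit of complex III, was at 29.7, 63.5 and 88.2 CPM in the knockdown libraries and 141, 217 and 246 CPM in the NT controls (-1.81, SE 0.31, limma adjusted p = 0.0833). The complex I subunit genes Ndufa6 (-1.71, SE 0.35, adjusted p = 0.113) and Ndufb9 (-1.57, SE 0.33, adjusted p = 0.116) also had no overlap between the groups.

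Cholesterol and fatty acid synthesis genes were lower as well. Of 30 tested, 27 had a lower mean in the knockdown libraries and 18 were lower in 3 of 3 sets, with a median of -1.01 and set medians of -0.41, -1.37 and -1.38. Scd1, the desaturase that makes monounsaturated fatty acids, was the 1 member that passed. It was at 18.8, 11.8 and 26.9 CPM in the knockdown libraries and 191, 148 and 169 CPM in the NT controls (-3.14, SE 0.36, limma adjusted p = 0.0471). Cyp51, the lanosterol demethylase, was at 135, 39.1 and 98.7 CPM in the knockdown libraries, against 413, 213 and 356 CPM in the NT controls (-1.95, SE 0.31, adjusted p = 0.0691). Sqle, which epoxidises squalene on the way to sterols, was at 160.4, 118 and 114 CPM in the knockdown libraries and 417, 490.2 and 321 CPM in the NT controls (-1.64, SE 0.30, adjusted p = 0.0934). The groups did not overlap in any of the 3 genes.

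Glutathione genes beyond the theta class were more often lower than higher, most of all in 6-2, without any passing. By set, 64.7%, 55.9% and 73.5% of them were lower, where 51.8%, 54.0% and 49.0% of all genes were. The second 42-3 set thus lay near the share of all genes. Of 34 tested, 11 had a higher and 23 a lower mean in the knockdown libraries, 1 was higher and 10 lower in 3 of 3 sets, and the median was -0.46, with set medians of -0.20, -0.04 and -1.13. Gsto1, an omega-class transferase, was at 255, 418 and 262 CPM in the knockdown libraries and 837, 672 and 885 CPM in the NT controls (-1.38, SE 0.37, limma adjusted p = 0.177). Gpx8, a peroxidase of the endoplasmic reticulum, was at 88.2, 144 and 78.2 CPM in the knockdown libraries, against 35.3, 61.2 and 28.1 CPM in the NT controls (1.32, SE 0.31, adjusted p = 0.143). Ggt6, of the gamma-glutamyltransferase family, had at most 0.102 CPM in the knockdown libraries, against 2.58 to 5.79 CPM in the NT controls (-2.16, SE 0.52, adjusted p = 0.150). Neither these nor any other member passed. Among 29 targets of NRF2, the transcription factor of the oxidative stress response, 19 had a higher mean, 12 were higher and 6 lower in 3 of 3 sets, and the median was 0.58. Their set medians were 0.87, 0.44 and 0.19, and in 6-2 they were evenly split, with 15 higher and 14 lower. Srxn1, which repairs peroxiredoxins, was at 136.5, 158 and 96.8 CPM in the knockdown libraries and 65.7, 57.2 and 47.0 CPM in the NT controls (1.17, SE 0.30, adjusted p = 0.168). Me1, a source of NADPH, was at 84.1, 81.2 and 68.3 CPM in the knockdown libraries, against 342, 243 and 354 CPM in the NT controls (-1.98, SE 0.31, adjusted p = 0.0660), and Ftl1, ferritin light chain, differed by 1.85 (SE 0.48, adjusted p = 0.169).

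Among p53 targets and inhibitors of cyclin-dependent kinases, 17 of 26 had a higher mean in the knockdown libraries, with a median of 1.00 and set medians of 1.06, 1.34 and 0.25. Cdkn1a, encoding the cell cycle inhibitor p21, was at 336, 415 and 152 CPM in the knockdown libraries and 44.6, 20.005 and 51.4 CPM in the NT controls (2.91, SE 0.54, limma adjusted p = 0.0934). Trp53 itself, a floxed gene in these lines, was at 60.3, 82.5 and 32.6 CPM in the knockdown libraries and 3.09, 10.2 and 7.45 CPM in the NT controls (2.93, SE 0.54, adjusted p = 0.0934). Neither gene overlapped between groups and neither passed. Cdkn2a (-5.08, SE 0.92, adjusted p = 0.0907) and Cdkn2b (-5.71, SE 1.02, adjusted p = 0.0891) belong to this list and are described above. Sirt6, the other floxed gene, was at 17.6, 17.1 and 17.2 CPM in the knockdown libraries and 8.91, 12.1 and 7.65 CPM in the NT controls, and whether its reads lie outside the deleted exons was not tested. Of 20 driver and oncofetal genes 11 had a higher and 9 a lower mean (median 0.15), none passing. Rnf43, a ubiquitin ligase that restrains Wnt receptors, was at 1.13, 0.357 and 0.921 CPM in the knockdown libraries and 22.2, 11.2 and 31.4 CPM in the NT controls (-3.56, SE 0.54, adjusted p = 0.0622). Lin28b, an oncofetal RNA-binding protein named after its values were seen, had no read in any knockdown library, against 1.77, 1.75 and 10.3 CPM in the NT controls, and was at least 15.1-, 4.91- and 66.8-fold lower against a floor of 3 reads per library.

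Epithelial genes were lower in the knockdown libraries by summed level, but the sets differed by member. The sums were 2839, 5662 and 3304 CPM against 14419, 14507 and 16472 CPM in the NT controls. Krt8, Krt18 and Krt19 made up most of each control sum and most of the fall, in 6-2 nearly all of it. Krt19, named after its values were seen, was at 368, 979 and 126 CPM in the knockdown libraries and 3154, 2581 and 3043 CPM in the NT controls. Of 31 tested, 24 had a lower mean and 15 were lower in 3 of 3 sets, with a median of -1.37 and set medians of -3.10, -0.98 and 0.23. The keratin pair of simple epithelium and the mucin Muc1 were lower in all sets without any passing. Krt8 was at 470.0, 1291 and 381 CPM in the knockdown libraries and 3711, 3673 and 4113 CPM in the NT controls (-2.64, SE 0.54, limma adjusted p = 0.112). Muc1 was at 1.72, 0.951 and 0.410 CPM in the knockdown libraries and 39.0, 19.9 and 36.1 CPM in the NT controls (-4.00, SE 0.56, adjusted p = 0.0556), and the keratin gene Krt20 differed by -4.33 (SE 0.81, adjusted p = 0.0959). The adhesion genes, named after their values were seen, split the sets. Cdh1, encoding E-cadherin, was at 1.17, 53.7 and 179 CPM in the knockdown libraries and 503, 249 and 322 CPM in the NT controls. Epcam was at 0.0391, 1.07 and 24.4 CPM in the knockdown libraries, against 60.5, 1.35 and 27.9 CPM in the NT controls. E-cadherin and Epcam were thus close to 0 in the 42-3 shRNA 1 library and detected in 6-2. Krt18, the partner of Krt8, was at 605, 2160 and 661 CPM in the knockdown libraries and 4328, 6167 and 6967 CPM in the NT controls. Krt7, a keratin of ductal epithelium, was at 0.0391, 6.18 and 320.2 CPM in the knockdown libraries and 414, 21.7 and 198 CPM in the NT controls. The markers of the labelled PDAC identity were therefore unevenly kept in the 42-3 shRNA 1 library, with Krt8 and Krt18 present and Krt7, Krt20, Cdh1 and Epcam near 0.

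Genes of the classical PDAC state, a gut-like differentiation program, gave the reverse order of sets. Of 23 tested, 19 had a lower mean in the knockdown libraries and 11 were lower in 3 of 3 sets, with a median of -1.68 and set medians of -0.47, -0.96 and -3.56. Vsig1 passed, and Gata4, described above, had a higher mean. Hnf4a, a transcription factor of endoderm, was at 220.4, 27.3 and 0 CPM in the knockdown libraries and 221, 110.5 and 230.2 CPM in the NT controls (-3.28, SE 1.39, adjusted p = 0.310). Hnf4a, named after its values were seen, was therefore at the control level in the 42-3 shRNA 1 library and without a read in the 6-2 library, the opposite order to E-cadherin.

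Proliferation genes lay in opposite directions in the sets that share shRNA 1. Of 38 mitotic genes, 35 were lower in the knockdown library of the first 42-3 set and 37 were higher in that of 6-2, while the second 42-3 set had 18 higher and 20 lower. The set medians were -1.07, -0.08 and 0.88, and the median of the mean change was -0.10. Mki67, the proliferation antigen, was at 107, 232 and 382 CPM in the knockdown libraries and 98.8, 119 and 67.7 CPM in the NT controls (1.18, SE 0.48, limma adjusted p = 0.301). Pttg1, encoding securin, was the single mitotic gene lower in 6-2, at 26.2, 71.5 and 40.9 CPM in the knockdown libraries against 100.3, 168 and 135 CPM in the NT controls (-1.61, SE 0.32, adjusted p = 0.109). Ckap2, of the mitotic spindle, differed by 0.92 (SE 0.35, adjusted p = 0.276). Of 47 DNA replication genes, 46 were lower in the first 42-3 set and 39 higher in 6-2, with set medians of -0.78, -0.25 and 0.74 and an overall median of -0.15. Pold2 (-0.99, SE 0.38, adjusted p = 0.279), Ccne2 (1.29, SE 0.55, adjusted p = 0.311) and Rfc3 (-0.87, SE 0.39, adjusted p = 0.330) had the smallest p of them. Each set has 1 library per arm, so these reversals have no replicate check within a set.

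Immune signalling split along another line. Of 29 interferon and MHC class I genes, 24 were lower in the second 42-3 set and 24 were higher in 6-2, with 14 higher and 15 lower in the first. The set medians were -0.22, -1.55 and 0.94. Ifit3, an interferon-induced antiviral gene, was at 0.196, 2.38 and 0.307 CPM in the knockdown libraries and 2.21, 16.8 and 6.17 CPM in the NT controls (-2.09, SE 0.55, limma adjusted p = 0.171), and the peptide transporter genes Tap1 (1.86, SE 0.59, adjusted p = 0.222) and Tap2 (1.64, SE 0.49, adjusted p = 0.202) were higher in 3 of 3 sets. Of 38 NF-kB and inflammatory genes, 20 had a higher and 18 a lower mean (median 0.09), and 2 passed, both lower. Ccl2, the monocyte chemoattractant, was at 17.4, 110.3 and 76.7 CPM in the knockdown libraries and 98.8, 563 and 442 CPM in the NT controls (-2.43, SE 0.28, adjusted p = 0.0471), lower within every set although the groups overlap. Il33, an alarmin of epithelium, was at 24.5, 10.3 and 1.84 CPM in the knockdown libraries and 232, 318 and 192 CPM in the NT controls (-4.70, SE 0.58, adjusted p = 0.0488). Csf2, encoding GM-CSF, differed by -3.21 (SE 0.50, adjusted p = 0.0660).

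Of 25 mesenchymal genes, Axl included, 11 had a higher and 14 a lower mean in the knockdown libraries, with a median of -0.05, while 7 were higher and 1 lower in 3 of 3 sets. The set medians were 0.44, 0.72 and -0.83, and Axl was the 1 member that passed. Twist1, a transcription factor of epithelial-mesenchymal transition, was at 41.8, 38.6 and 39.9 CPM in the knockdown libraries and 4.12, 0.0674 and 2.75 CPM in the NT controls (3.91, SE 0.63, limma adjusted p = 0.0703), and Foxc2 differed by 2.72 (SE 0.60, adjusted p = 0.129). Vim and Fn1, encoding vimentin and fibronectin and named after their values were seen, differed in direction between sets. Vim was at 1484, 2831 and 1105 CPM in the knockdown libraries and 2239, 1899 and 2822 CPM in the NT controls. Fn1 was at 13557, 8155 and 2292 CPM in the knockdown libraries, against 2314, 3250 and 3923 CPM in the NT controls. Of 42 matrix and integrin genes 24 had a higher mean (median 0.50). Col12a1, a fibril-associated collagen, was at 48.4, 53.5 and 33.3 CPM in the knockdown libraries and 2.87, 3.91 and 2.82 CPM in the NT controls (3.44, SE 0.49, adjusted p = 0.0556). Itgb4, the hemidesmosome integrin, differed by 2.58 (SE 0.39, adjusted p = 0.0622), and Plat, tissue plasminogen activator, by -2.24 (SE 0.39, adjusted p = 0.0854). Of 31 neuronal and axon guidance genes 22 had a higher mean (median 0.50), Ephb2 passing. Nrp2, a semaphorin and VEGF co-receptor, differed by 1.67 (SE 0.40, adjusted p = 0.146) and the ephrin receptor gene Epha4 by -1.78 (SE 0.49, adjusted p = 0.183).

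The remaining lists had no member past the threshold. Of 32 immediate early and ERK output genes 17 had a higher mean (median 0.01). Spry1, a feedback inhibitor of receptor tyrosine kinase signalling, was at 18.002, 15.5 and 14.9 CPM in the knockdown libraries and 71.7, 61.5 and 66.5 CPM in the NT controls (-1.98, SE 0.38, limma adjusted p = 0.0987). Hbegf (-1.27, SE 0.33, adjusted p = 0.171) and Fos (-1.34, SE 0.35, adjusted p = 0.173) were lower in 3 of 3 sets. Of 31 glycolysis and hypoxia genes 14 had a higher mean (median -0.05), with Eno2 at 3.44 (SE 0.57, adjusted p = 0.0772), Aldoc at -3.67 (SE 0.73, adjusted p = 0.109) and Eno1 at -1.94 (SE 0.41, adjusted p = 0.122). Of 28 stress response genes 18 had a lower mean (median -0.45), with Creld2 at -1.61 (SE 0.29, adjusted p = 0.0891), Phgdh at -1.74 (SE 0.35, adjusted p = 0.111) and Sdf2l1 at -1.67 (SE 0.39, adjusted p = 0.144).

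**Figure D4:**
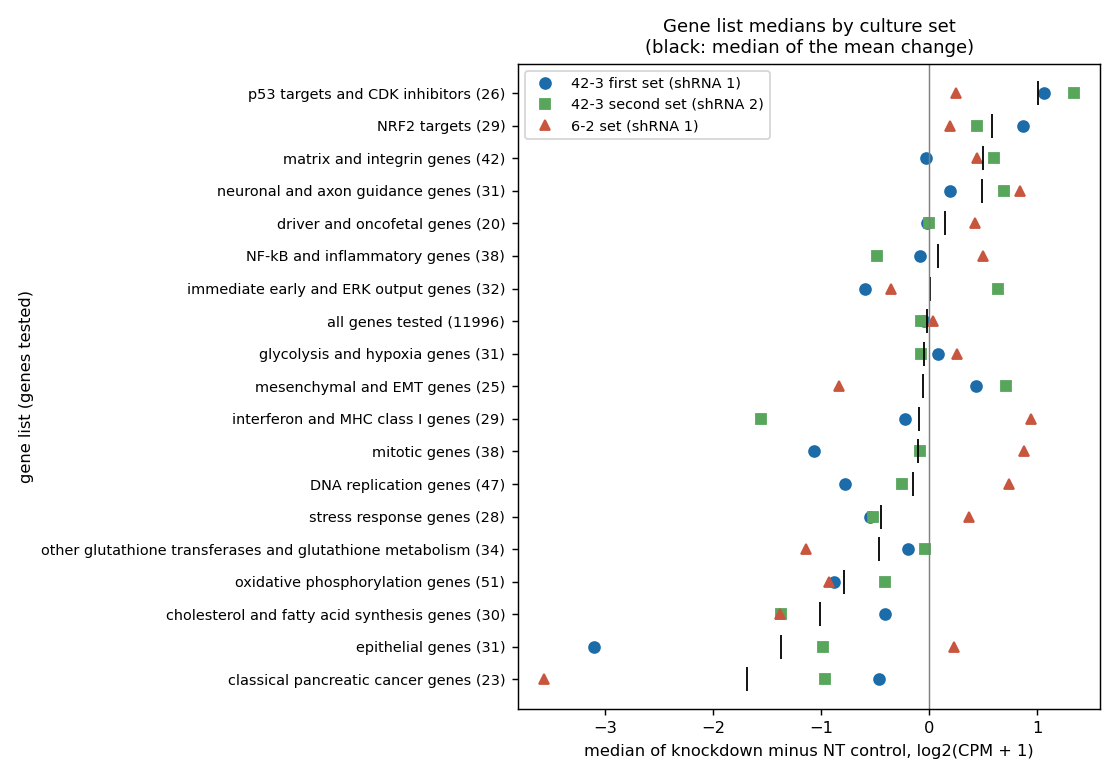
Median within-set difference, knockdown minus NT control in log2(CPM + 1), of each gene list by culture set, with the number of genes tested in brackets and a black tick at the median of the mean change. Oxidative phosphorylation and cholesterol synthesis lie left of 0 in all 3 sets, while mitotic, DNA replication and interferon genes lie on both sides.

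Several markers of other cell types were high in only some of the libraries. Summed fibroblast markers (9 of 10 in the table) were at 3880, 357 and 63.1 CPM in the knockdown libraries and 58.5, 14.1 and 49.8 CPM in the NT controls. Most of the first value was the collagen gene Col3a1, at 3625, 75.6 and 1.18 CPM in the knockdown libraries and 0.0736, 0.472 and 7.11 CPM in the NT controls, while the fibroblast markers Dcn and Col1a2 stayed under 1 CPM in all 6 libraries. Pdgfrb, a receptor for platelet-derived growth factor, was at 219, 37.4 and 0.154 CPM in the knockdown libraries and 0.442, 0.202 and 0.604 CPM in the NT controls. Its relative Pdgfra was at 1.29, 2.497 and 55.03 CPM in the knockdown libraries and 1.62, 1.21 and 1.07 CPM in the NT controls. The collagen gene Col1a1 was at 32.3, 239.7 and 2.10 CPM in the knockdown libraries and 55.7, 11.9 and 40.7 CPM in the NT controls. Pdgfrb was thus high in both 42-3 knockdown libraries, Pdgfra in that of 6-2 and Col1a1 in that of the second 42-3 set. Smooth muscle markers summed to 6.46, 250.4 and 5.22 CPM in the knockdown libraries and 5.16, 3.30 and 9.59 CPM in the NT controls, almost all of the 42-3 shRNA 2 value being Acta2 (246 CPM). Macrophage markers summed to 105, 110.0 and 27.6 CPM in the knockdown libraries and 96.0, 382 and 188 CPM in the NT controls. Most of each sum was Cd14, at 103, 108 and 14.9 CPM in the knockdown libraries and 79.7, 368 and 178 CPM in the NT controls. The leukocyte gene Ptprc was under 0.5 CPM everywhere. Lymphocyte markers did not pass 0.119 CPM in sum, and endothelial markers ran from 0.0391 to 12.7 CPM in the knockdown libraries and 1.08 to 1.68 CPM in the NT controls. Lung epithelial markers summed to 89.7 to 176 CPM in the knockdown libraries and 83.2 to 100.02 CPM in the NT controls, mostly Abca3. Hepatocyte markers ran from 0.357 to 3.63 CPM in the knockdown libraries and 6.80 to 19.9 CPM in the NT controls, and acinar and endocrine markers from 0.256 to 21.2 CPM in the knockdown libraries and 2.22 to 8.79 CPM in the NT controls. Few of these markers were tested in the limma fit: 3 fibroblast, 2 smooth muscle, 2 macrophage, 2 lung epithelial, 1 hepatocyte and 1 acinar or endocrine. None passed, and Pdgfrb and the lymphocyte and endothelial markers were not tested. A marker high in a single library has a wide error there (Col3a1 5.18, SE 2.31), so the fit cannot decide on such markers. The part of other cells in the gene differences was not tested. In bulk RNA, fewer cells of a type and less RNA per cell cannot be told apart.

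To see where the lung sets differed from the liver sets, the lung knockdown effect minus the liver knockdown effect was tested over 12931 genes in all 18 libraries. The liver sets G45-2 and 6-3 had a library for each hairpin, set against a single shared NT control. Both hairpin libraries entered the fit separately, so these sets weigh more in it, although such libraries are not independent sets. The liver set differences given below average the hairpins. limma called 65 genes (0.503%), of which 33 were higher (0.255%) and 32 lower (0.247%) in the lung effect, and edgeR on the recovered reads called 7 and 6. Of the 55 genes called in the lung lines, 14 passed this test of the difference. The 55 were picked from the same lung libraries that enter this test, so their share of passing genes is no independent support. Axl was among the 14, with lung set differences of 3.23 to 3.56 against liver set differences of -0.15 to 1.03 (difference 3.09, SE 0.36, adjusted p = 0.00521). Sqle, the sterol gene, differed by -2.31 (SE 0.34, adjusted p = 0.0156), with -2.04 to -1.37 in lung sets and -0.12 to 1.29 in liver sets. Twist1 (4.63, SE 0.76, adjusted p = 0.0277) and Me1 (-1.68, SE 0.29, adjusted p = 0.0401), neither of which passed in the lung lines alone, also differed between the organs. Gstt1 itself did not pass, with -5.30 to -4.83 in lung sets and -4.30 to -0.60 in liver sets (difference -2.93, SE 1.17, adjusted p = 0.200). The liver sets differ in how far Gstt1 was lowered: shRNA 1 left 23.9 CPM in G45-2 and 19.2 CPM in 6-3, against 43.8 and 25.4 CPM in their NT controls, and the NT controls of the 42-2 sets had only 2.67 and 0.616 CPM. The liver effect thus averages sets with little and with strong depletion. The Y-linked Eif2s3y, Ddx3y and Uty are among the 65. By the limit of 10 CPM and 10-fold used above, identity transcripts also differed within 3 of the 5 liver sets, Cdkn2a and Cdkn2b in the first 42-2 set and in 13-2 and Kdm5d in G45-2. The NT controls of both 42-2 sets and of 13-2 had at most 3.46 CPM of Ddx3y, too little to meet that limit. In the liver sets 6-3 and 13-2 the labels give the knockdown libraries another library code than their NT controls. Knockdown and library code therefore cannot be told apart within those sets, while both arms of each lung set share a code. Organ, these library codes and these differences in identity cannot be told apart in this test.

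**Figure D5:**
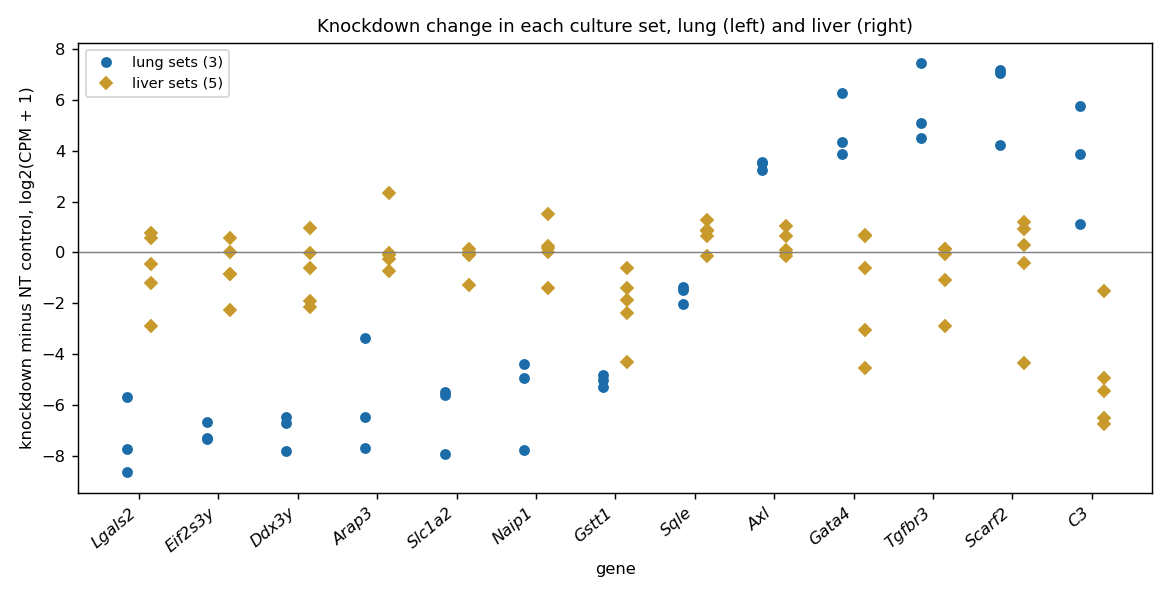
Difference from the own NT control in log2(CPM + 1) for 13 genes, in the 3 lung culture sets (left, circles) and the 5 liver culture sets (right, diamonds, hairpins averaged within a set). Axl lies at 3.23 to 3.56 in lung sets and -0.15 to 1.03 in liver sets, and C3 is higher in all lung knockdowns and lower in all liver knockdowns.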

How the data were processed

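Total-RNA libraries (TruSeq) were sequenced, and the authors deposited CPM values per gene, with mm9 as the genome build named in the submitters' processing notes. Aligner, counter, annotation and filters were not given in the sources used here. Low values were whole multiples of what 1 read is worth, so reads were recovered, 100% of values being whole within 0.01 reads, for edgeR's quasi-likelihood test, an alternative chosen after seeing the data that called 0 genes in the lung lines. The table held 16383 genes, of which 32 symbols occur more than once.

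Groups came from the labels. Genes at 1 CPM or more in at least 3 lung libraries (4 libraries for lung minus liver) were tested on log2(CPM + 1) with limma 3.58.1 (R 4.3.3), blocking on the culture set, and Benjamini-Hochberg adjustment over all genes tested at 0.05; edgeR was 4.0.16. With 2 residual degrees of freedom, the moderated variance drew on 4.07 prior ones. The pairing comes from the cell line in the labels and, within line 42-3, from the library code. Deviations of the 2 libraries of a set from their group means correlated at 0.0906, -0.190 and -0.336 in the first 42-3, second 42-3 and 6-2 sets. A knockdown and an NT control of different sets correlated at -0.165 to 0.361. Correlation was therefore not higher within sets than across them, and the pairing rests on the labels alone. No label says that libraries came from separate cultures, so the p-values reflect only the spread among these libraries, and that spread may be technical. No libraries were duplicates, since chi-square divided by its degrees of freedom was at least 33.0 for every pair.

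The comparison, the 28 gene lists and the tests were chosen with earlier results of these data known, and lists were described, not tested. Named genes were the 12 largest rises and 12 largest falls past the threshold with a mean of at least 5 CPM, with Gata4 filling the place left by only 11 rises, and up to 4 members of each list that passed, filled to 3 by smallest p. Some results that these rules select are not reported here. Genes named outside these rules were chosen after their values were seen: Vil1, Myo7b, Cdh1, Epcam, Krt18, Krt19, Hnf4a, Sirt6, Lin28b, Krt7, Vim, Fn1, Pdgfrb, Dcn, Col1a2 and Ptprc. Alternatives covered the pseudocount, filter, scaling, block, variance estimate, tool and each set left out.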

Additional observations from a re-analysis of the deposited data

Results flagged for a closer look

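The knockdown effect differed between the lung and the liver sets in 65 genes by limma's test of that difference, and the 10 with the largest estimates at a mean of at least 5 CPM are given as lung minus liver on the log2(CPM + 1) scale. C3, the central complement component, differed by 8.51 (SE 1.35, adjusted p = 0.0234), with 1.10 to 5.75 in the 3 lung sets and -6.76 to -1.50 in the 5 liver sets, so that all sets of one organ lay opposite to all sets of the other. It was at -6.50 and -4.96 in the first and second 42-2 liver sets, whose NT controls had only 2.67 and 0.616 CPM of Gstt1. Scarf2 differed by 6.77 (SE 1.28, adjusted p = 0.0477), Tgfbr3 by 6.33 (SE 0.80, adjusted p = 0.00655) and Gata4 by 6.28 (SE 1.19, adjusted p = 0.0484), each higher in all lung knockdowns. Lgals2 differed by -6.77 (SE 0.86, adjusted p = 0.00655) and Slc1a2 by -6.04 (SE 0.61, adjusted p = 0.00347). Arap3, a GTPase-activating protein that turns small GTPases off, differed by -6.20 (SE 1.19, adjusted p = 0.0492). Naip1, an inflammasome sensor with close paralogs, differed by -5.88 (SE 0.95, adjusted p = 0.0258). The Y-linked Eif2s3y differed by -6.49 (SE 0.64, adjusted p = 0.00347) and Ddx3y by -6.36 (SE 0.74, adjusted p = 0.00521). The part of the identity differences of the lung and liver libraries in these values was not tested, nor was that of the library codes.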

How the results depend on the processing

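The number of calls in the lung lines depended strongly on the setting, against 11 higher and 44 lower as reported; the cause was not tested. It was 2 higher and 16 lower with a pseudocount of 0.5, 2 and 17 with median-ratio rescaling, 4 and 26 with robust variance estimation, and 334 and 515 with all 18 libraries in the fit. With no filter on low values it was 0 and 0 (923 and 1344 at an unadjusted p under 0.05, smallest limma adjusted p 0.221), and by edgeR 0 and 0. A minimum of 5 CPM gave 7 higher, and quantile normalization gave 21 higher and 44 lower, so that 32.3% of the calls were higher, where 20% were as reported. Without the replicate block there were 82 higher and 172 lower, and with the cell line as the block 40 and 88. Leaving out each set in turn gave 0 to 50 higher and 0 to 228 lower.

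For lung minus liver, against 33 higher and 32 lower, there were 20 higher with no filter, 58 and 51 with quantile normalization, 1 and 3 with no replicate block, and 7 and 6 by edgeR. Leaving out each set gave 13 to 62 higher and 10 to 60 lower. The Gstt1 difference was -5.72 with a pseudocount of 0.5, -4.26 with 2 and -7.04 by edgeR, and ran from -5.15 to -4.92 when each set was left out. Of 1211 alternative values of 87 single results, 985 kept direction and side of the threshold, 148 lost the call, 72 gained it and 6 changed sign. Those were Col1a1 (-0.10 as reported), at 0.036 with quantile normalization and -2.26 to 1.73 with each set left out, Cela1 at -2.31 to 0.55, Acta2 at -0.30 to 4.34 and Ager at -0.074 to 1.40 with each set left out. With 1 library per arm in each set, depth limits values under 0.117 to 0.357 CPM, where fewer than 3 reads were counted.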
